A study of Arabidopsis thaliana with 12 samples.

Results

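Nuclear genes for building and servicing the photosynthetic membrane were followed on an array of Arabidopsis thaliana RNA. The 9 genes were picked by function and locus: each of these loci lies on a probe whose annotation names it alone, and each has 1 such probe, out of 689 loci that the table holds on probes of this kind. All 9 had an intensity above 0 in every sample and were tested, among 584 such loci that were. All samples came from wild-type plants of the ecotype Wassilevskija, 6 treated with water and 6 treated in MS, a plant salt medium, with 60 mM sucrose for 30 min. The salts and the sugar were added together and cannot be told apart here, and the labels give no age, tissue, light conditions or duration of the water treatment. Of 22 marker loci for leaf mesophyll, root, guard cell, seed and epidermis, 0 lay on a tested probe that names 1 gene, so the tissue could not be checked. Nothing in the labels says that samples of a group were grown apart, so the spread behind the p-values may be partly or wholly technical.

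Photosystems, the cytochrome b6f complex and the chloroplast NDH complex are assembled in the thylakoid membrane from subunits encoded in the plastid and in the nucleus. Assembly factors hold unfinished complexes, insert cofactors or take part in repair, and most are not part of the finished complex. The NDH complex takes electrons from ferredoxin into the plastoquinone pool and serves cyclic electron flow around photosystem I.

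Expression was read as 1 intensity per probe and sample on a deposited scale from 0 to 100, whose unit is unknown. The medians of the 6 water arrays lay between 0.171 and 0.188 and those of the 6 sucrose arrays between 0.422 and 0.459, so intensities were quantile normalised on the log2 scale before the groups were compared. A fold change below is therefore relative to the rest of the array. Intensities were read per sample and not per cell, so fewer cells of a type and less RNA per cell cannot be told apart. Under this scaling 4 of the 9 genes passed the threshold (limma, Benjamini-Hochberg adjusted p under 0.05), 2 higher and 2 lower in sucrose medium. Of all 2915 probes tested 64.4% passed, 31.5% as higher and 32.9% as lower; the difference of these shares was not tested. The median log2 fold change of the 9 genes was 0.03, against -0.03 over all tested probes and 0.05 over those that name 1 gene. Without scaling 81.6% of all probes passed, 73.9% as higher and 7.75% as lower. After normalisation the groups did not overlap in the 4 genes, as in 44.3% of all tested probes; on the deposited scale 5 of the 9 genes had every sucrose sample above every water sample, as had 64.0% of all probes. Samples with replicate numbers 1 and 2, 3 and 4, and 5 and 6 resembled each other within and across the groups, and these sets of 2 are used below to show where a gene varied.

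**Figure D1:**
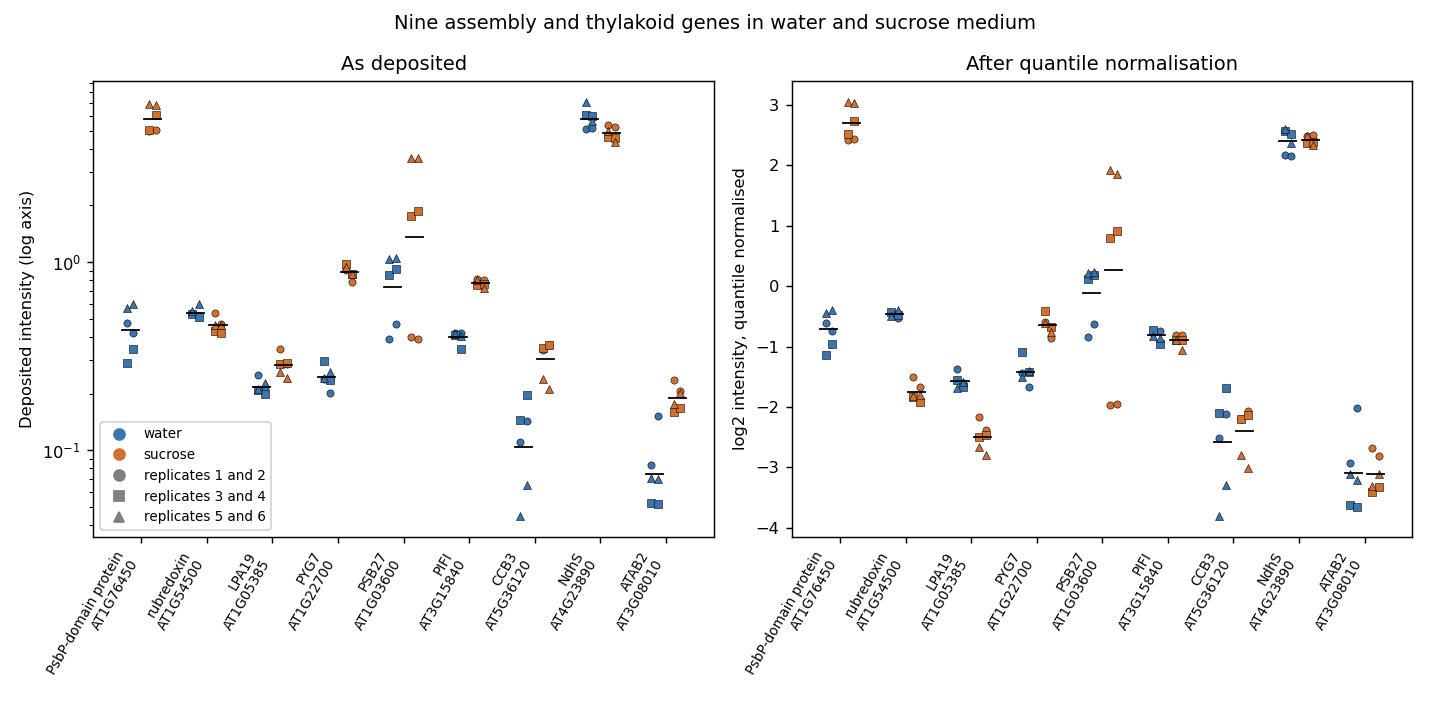
Intensity of the 9 genes in each of the 12 samples, as deposited on a log axis (left) and as quantile normalised log2 intensity (right), with water in blue and sucrose medium in orange; symbols mark the sets of replicate numbers, and short lines are group means (geometric on the left). AT1G76450 and PYG7 are higher in every sucrose sample in both panels, the rubredoxin is lower in all of them on the right only, LPA19 is lower on the right and mostly higher on the left, and PSB27 spreads widest in sucrose medium.

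The largest difference among the 9 genes was in AT1G76450. It encodes a protein with the PsbP domain, named after a lumenal subunit of photosystem II; proteins with this domain also serve other thylakoid complexes, and the name alone assigns the gene to none. Its deposited intensity ran from 0.291 to 0.600 in water, with a median of 0.448, and from 4.96 to 6.96 in sucrose medium, with a median of 5.56. The lowest sucrose sample was far above the highest water sample. After normalisation the log2 intensity was -0.71 ± 0.29 in water and 2.70 ± 0.29 in sucrose medium (SD, n = 6 each), and the gene rose by 3.41 ± 0.16 log2 units (SE; limma, adjusted p = 6.36e-09), in 6 of 6 same-numbered pairs. Ranked among the tested probes of its own array, which needs no scaling between arrays, it stood at percentiles 62.6 to 78.9 in the water samples and 97.4 to 98.1 in the sucrose samples. The probe thus moved from the upper middle of the array into its brightest few percent in each of the 6 sucrose samples (two-sided exact permutation test of the percentile, p = 0.00216, the smallest that 6 against 6 samples allow; 9 genes were tested in this way). Exchanged only within same-numbered pairs, AT1G76450, the rubredoxin, LPA19 and PYG7 each had p = 0.0312 (two-sided exact permutation test), the smallest that 6 pairs allow. In these genes the percentiles of the groups did not overlap. That alone fixes both permutation p-values at their minimum, so they add nothing to it. After normalisation the groups did not overlap in 44.3% of all tested probes. The share of probes at the smallest p was not computed. Samples of a set with different numbers also resembled each other across the groups, so the 6 pairs are not independent. Whole sets were not exchanged. The permutation p-values, here and for the genes below, may therefore be too small. The increase of AT1G76450 was present in each set of replicate numbers, at 3.10, 3.67 and 3.46.

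AT1G54500 encodes a rubredoxin, a small iron-binding electron carrier of thylakoids that algae and plants need for the accumulation of photosystem II. Its deposited intensity hardly varied, at 0.514 to 0.601 in water (median 0.532) and 0.418 to 0.534 in sucrose medium (median 0.461). The ranges overlapped on this scale, on which the typical probe of the array was brighter in sucrose medium. Relative to the rest of the array the gene fell by 1.29 ± 0.08 log2 units (SE; limma, adjusted p = 4.67e-08), from -0.46 ± 0.05 to -1.76 ± 0.14 (SD, n = 6 each). It was lower in 6 of 6 pairs, and at -1.10, -1.41 and -1.37 within the 3 sets. Its rank moved from percentiles 76.8 to 79.0 in the water arrays to 38.8 to 51.4 in the sucrose arrays (two-sided exact permutation test, p = 0.00216). In spread it was among the tightest probes: its within-group SD was 0.11, and 4.39% of the 2805 probes measured in all samples had an SD no larger.

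LPA19 (AT1G05385) and PSB27 (AT1G03600) encode the chloroplast relatives of Psb27, a lumenal protein of unfinished and damaged photosystem II. In Arabidopsis, LPA19 is known for its part in the processing of the D1 reaction centre protein, and PSB27 for the recovery of photosystem II after damage by strong light. LPA19 had deposited intensities of 0.198 to 0.250 in water (median 0.211) and 0.241 to 0.344 in sucrose medium (median 0.286), ranges that overlap slightly. After normalisation LPA19 fell by 0.92 ± 0.10 log2 units (SE; limma, adjusted p = 8.88e-06), from -1.57 ± 0.11 to -2.49 ± 0.22 (SD, n = 6 each), in 6 of 6 pairs, while without scaling it was higher at 0.38. That unscaled value passed the threshold as higher (limma, adjusted p = 0.00217), but lies 0.71 below the median of all probes, 1.09. The decrease relative to other probes was seen in each set, at -0.79, -0.87 and -1.09. LPA19 ranked at percentiles 45.9 to 55.7 of the water arrays and 16.9 to 31.4 of the sucrose arrays (two-sided exact permutation test, p = 0.00216).

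PSB27 was not past the threshold, with a log2 fold change of 0.38 and a 95% interval from -1.10 to 1.86 (limma, adjusted p = 0.643). Its samples did not scatter evenly. In water the deposited intensities were 0.389 and 0.467 in replicates 1 and 2, 0.857 and 0.920 in replicates 3 and 4, and 1.03 and 1.05 in replicates 5 and 6. In sucrose medium they were 0.397 and 0.390 in replicates 1 and 2, 1.75 and 1.87 in replicates 3 and 4, and 3.55 and 3.56 in replicates 5 and 6. The highest sucrose sample was thus 9.14 times the lowest, although samples within a set differed little.

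On the normalised scale the difference for PSB27 was -1.23 in replicates 1 and 2, 0.71 in replicates 3 and 4, and 1.67 in replicates 5 and 6. The 3 values span 2.90 on the log2 scale, against a median span of 0.43 over the 2805 probes measured in all samples, and 18 of those probes, PSB27 included, had a span at least as wide. With replicates 1 and 2 left out of both groups PSB27 passed the threshold as higher, at 1.19 (limma, adjusted p = 0.00431), a setting chosen after seeing the data in which 1781 of 2910 probes passed. With replicates 5 and 6 left out it was at -0.26 (limma, adjusted p = 0.784), and with median centring at -0.36. For LPA19, the other Psb27 relative, the 3 sets spanned 0.31. What sets the samples apart is not stated in the labels, and its part in the result for PSB27 was not tested.

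**Figure D2:**
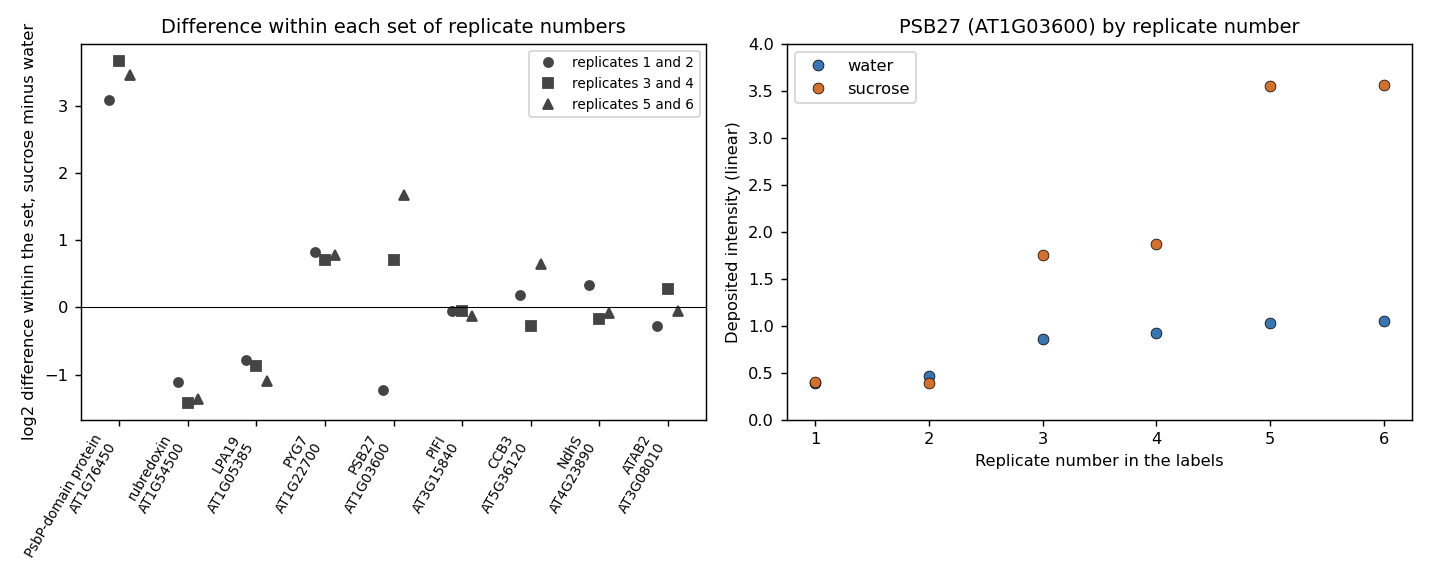
Left, log2 difference between sucrose medium and water within each set of replicate numbers for the 9 genes (quantile normalised; each point is the difference of 2 means of 2 samples). Right, deposited intensity of PSB27 on a linear axis against the replicate number, which names a sample and is no order in time. The 4 genes past the threshold, whose groups do not overlap, keep their sign in all 3 sets, and so does PIFI, which did not pass. PSB27 runs from -1.23 to 1.67.

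PYG7, one of the members tied to photosystem I, was higher in sucrose medium. AT1G22700 is PYG7, a thylakoid protein with tetratricopeptide repeats that photosystem I needs for its assembly or stability. Its deposited intensity was 0.201 to 0.299 in water (median 0.240) and 0.783 to 0.971 in sucrose medium (median 0.886), with no overlap. It rose by 0.77 ± 0.10 log2 units (SE; limma, adjusted p = 3.19e-05), from -1.42 ± 0.19 to -0.65 ± 0.15 (SD, n = 6 each), higher in 6 of 6 pairs. It ranked at percentiles 46.7 to 63.5 of the water arrays and 69.4 to 78.6 of the sucrose arrays (two-sided exact permutation test, p = 0.00216). PYG7 was also the most even of the 4 across sets, at 0.82, 0.71 and 0.78.

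CCB3 (AT5G36120) encodes a factor for the covalent attachment of a haem to cytochrome b6. It was dim in water, where its deposited intensity ran from 0.0448 to 0.197 with a median of 0.127. In sucrose medium it ran from 0.212 to 0.364 with a median of 0.344, so every deposited sucrose value was above every water value. After normalisation the groups overlapped, and the log2 fold change was 0.18, with a 95% interval from -0.54 to 0.91 (limma, adjusted p = 0.651). Replicates 5 and 6 were the lowest of their group both in water, at 0.0448 and 0.0653, and in sucrose medium, at 0.239 and 0.212. Without that set the log2 fold change was -0.05. The interval is wide and holds both a modest decrease and an increase of nearly 1 log2 unit.

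The genes of the NDH pathway, NdhS and PIFI, were close to level with the array after quantile normalisation, but passed the threshold under other scalings. With median centring they were at -1.52 and -0.30, and with a straight line at -0.47 and 0.29 (limma, adjusted p = 3.38e-08, 0.00249, 0.00161 and 0.00676). The intervals below cover the spread between samples and not the choice of scaling. NdhS (AT4G23890) is the subunit that forms the ferredoxin binding site of the chloroplast NDH complex. It was the brightest of the 9 probes in water, where its deposited intensity was 5.07 to 7.11 (median 5.79), and it was at 4.32 to 5.35 (median 4.80) in sucrose medium. Its rank stayed between percentiles 96.9 and 97.7 in all 12 samples. Its log2 fold change was 0.03, with a 95% interval from -0.18 to 0.23 (limma, adjusted p = 0.804).

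PIFI (AT3G15840) encodes a stromal protein, needed in Arabidopsis for the rise of chlorophyll fluorescence that follows illumination, an activity linked to NDH. The deposited intensity of PIFI was 0.343 to 0.420 in water (median 0.412) and 0.732 to 0.814 in sucrose medium (median 0.784). These ranges do not overlap, but the unscaled log2 difference, 0.96, was close to the median of all probes, 1.09. Its log2 fold change after normalisation was -0.08, with a 95% interval from -0.23 to 0.07 (limma, adjusted p = 0.343), and it was lower in 5 of 6 pairs. Differences within the sets were -0.05, -0.05 and -0.13. Its within-group SD was 0.09, and 1.60% of the 2805 probes measured in all samples had an SD no larger.

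ATAB2 (AT3G08010) encodes an RNA-binding protein that in Arabidopsis activates the translation of plastid mRNAs for subunits of both photosystems. It was the dimmest of the 9, with deposited intensities of 0.0520 to 0.152 in water (median 0.0706) and 0.159 to 0.236 in sucrose medium (median 0.188). The highest water value belonged to replicate 2 and the next, 0.0832, to replicate 1. The log2 fold change was -0.02, with a 95% interval from -0.57 to 0.53 (limma, adjusted p = 0.953). ATAB2 ranked at percentiles 5.98 to 36.4 of the water arrays and 8.22 to 19.3 of the sucrose arrays. Differences of any size inside that interval remain compatible with these values in this fit.

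**Figure D3:**
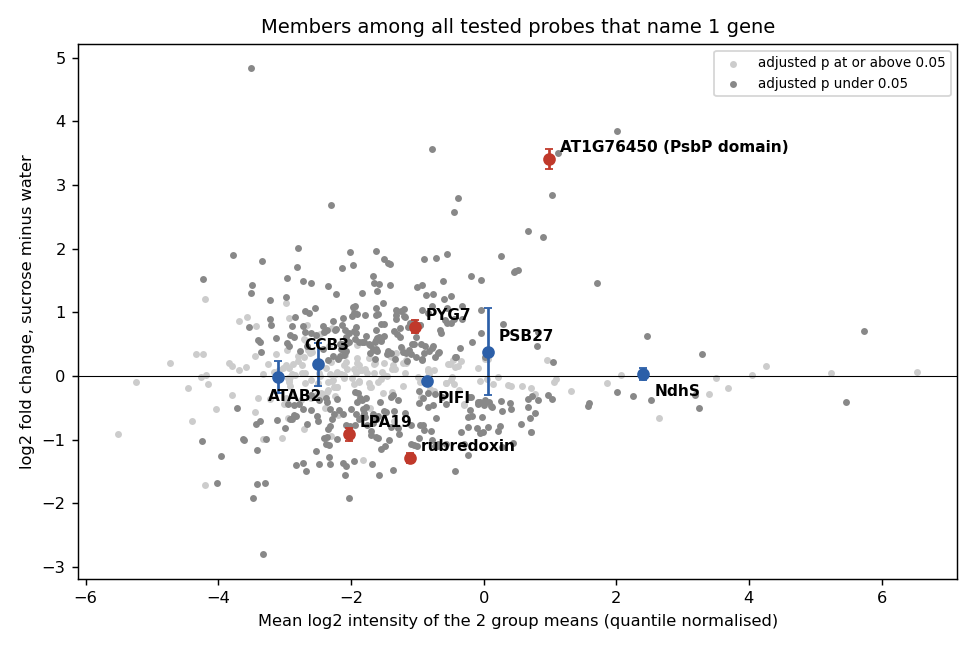
Log2 fold change (sucrose minus water, bars are SE) against the mean log2 intensity for all tested probes that name 1 gene, with the 9 genes in red where adjusted p is under 0.05 and in blue otherwise. AT1G76450 lies near the top edge at 3.41, while LPA19 (-0.92, above 0 without scaling), the rubredoxin (-1.29) and PYG7 (0.77) lie inside the cloud of other genes.

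The sizes, and for 6 genes the direction or the call, depended on how the arrays were scaled. With cyclic loess 4 of the 9 genes passed, where 61.5% of all probes did; with median centring 6 of 9 and 69.2%, of which 4 of the 9 genes and 41.5% of all probes as lower; with a straight line 6 of the 8 that could be tested and 71.1%; and without scaling 8 of 9 and 81.6%. AT1G76450 and PYG7 were past the threshold as higher under all 5 scalings, from 2.46 with median centring to 3.72 without scaling for AT1G76450, and from 0.60 with median centring to 1.86 without scaling for PYG7. The rubredoxin was past it as lower under all 5, from -1.48 with median centring to -0.23 without scaling. LPA19 was past the threshold as lower under 4 scalings, from -2.35 with a straight line to -0.88 with median centring. The straight-line value is the less certain, with an SE of 0.47 against 0.10 with median centring. With the straight line 2410 probes could be tested, against 2915 in the main fit. Without scaling LPA19 was past it as higher, at 0.38 (limma, adjusted p = 0.00217). NdhS was level with the array under quantile normalisation and cyclic loess, at 0.03 and 0.13, but lower with median centring and a straight line. Without scaling NdhS was at -0.26 (limma, adjusted p = 0.0213), while the median probe was at 1.09. PIFI passed in opposite directions with median centring and a straight line. PSB27 did not pass under any of them and ran from -0.36 with median centring to 0.90 without scaling. CCB3 and ATAB2 passed only without scaling, at 1.54 and 1.34, which is 0.45 and 0.25 above the median of all probes. After the straight-line scaling ATAB2 had too few values above 0 for a test, although all its deposited values were above 0. The 4 genes called after quantile normalisation also passed, and the other 5 did not, with the replicate number as a block, where 69.4% of all probes passed, and with the samples of each set averaged to 3 values per group, where 46.9% did.

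**Figure D4:**
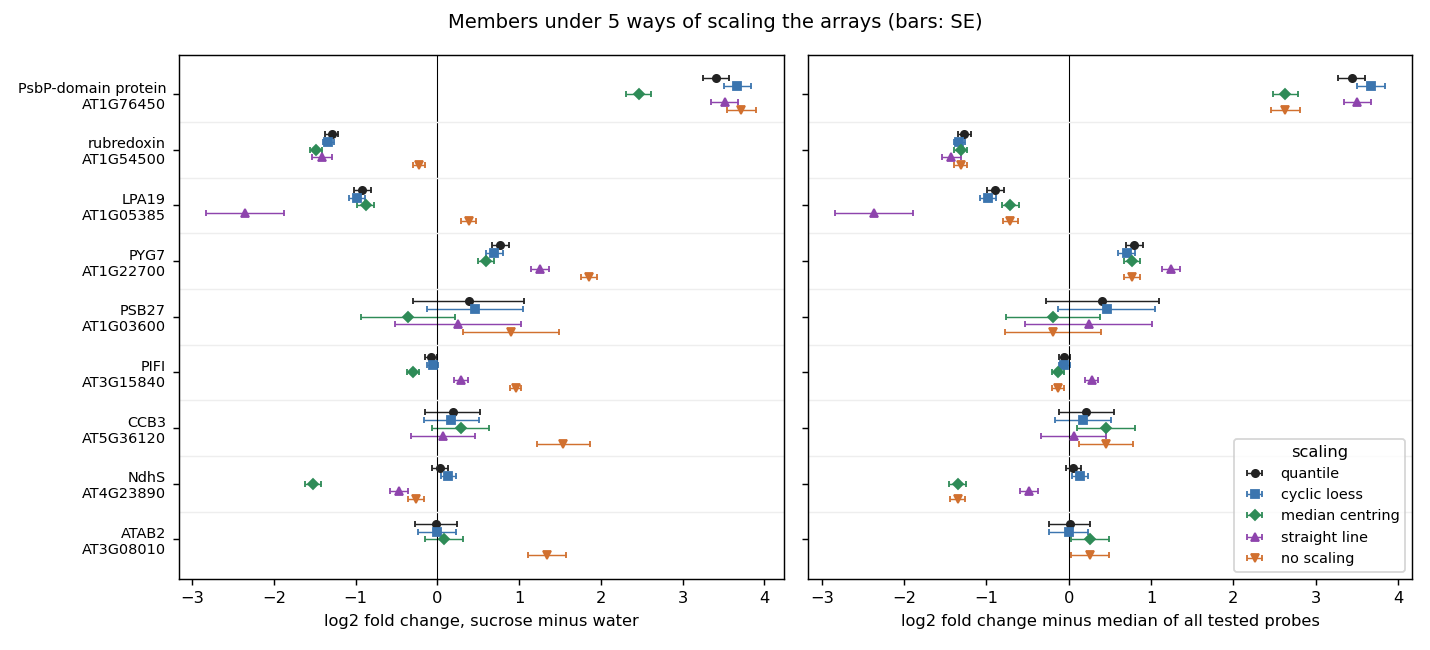
Log2 fold change of the 9 genes under 5 ways of scaling the arrays (left) and the same values after subtraction of the median over all tested probes (right); bars are SE. AT1G76450 and PYG7 stay above 0 and the rubredoxin below 0 in all. On the left, LPA19 is below 0 except without scaling, and NdhS runs from -1.52 to 0.13. On the right, LPA19 is below 0 in all, and median centring and no scaling give the same values by construction.

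Other genes for the assembly and upkeep of thylakoid complexes were sought with a list of 92 further loci, of which 6 lay on probes that name 1 gene and 3 of these could be tested. FZL (AT1G03160), a dynamin-related protein that shapes thylakoids, was lower, at -1.68 ± 0.21 (SE; limma, adjusted p = 2.34e-05), and at -1.45 with median centring (adjusted p = 1.24e-06); unscaled, it did not pass (-0.19, adjusted p = 0.191). Its probe was dim, with deposited medians of 0.111 in water and 0.0968 in sucrose medium. Cpn60beta4 (AT1G26230), a chaperonin subunit that NDH assembly requires in Arabidopsis, had 0.09 ± 0.12 (adjusted p = 0.547). AT1G74730 (RIQ2), which affects grana stacking, had 0.59 ± 0.49 (adjusted p = 0.311). So 0 of the 3 were higher and 1 was lower, where 31.5% and 32.9% of all tested probes were, and their median was 0.09. Without scaling, where the median probe was at 1.09, Cpn60beta4 and AT1G74730 passed as higher, at 1.37 and 1.95 (limma, adjusted p = 3.26e-07 and 0.00355). AT1G49380, NdhN (AT5G58260) and AT4G13220 were above 0 in 1 water sample and in 0 sucrose samples each, with no value over 0.0236, and were not tested.

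The genes whose samples deviated most alike from their group means were sought for AT1G76450 and the rubredoxin. These members had the largest difference in each direction. The search ran over 555 other probes that name 1 gene and had a value in all 12 samples. For AT1G76450 the genes most alike were AT4G35660, AT5G17840 and AT5G49840, with Pearson correlations of 0.93, 0.91 and 0.88 over 12 samples. For the rubredoxin they were AT-HF (AT4G26900), an enzyme of histidine synthesis, AT2G18920 and ATSPS4F (AT4G10120), a sucrose phosphate synthase, at 0.91, 0.90 and 0.87. The first 3 were higher in sucrose medium, as was AT1G76450, at 0.84, 0.41 and 1.76 (limma, adjusted p = 0.000188, 0.00944 and 1.84e-08). Among all tested probes 31.5% passed as higher and 32.9% as lower. Deviations from the group means hold no difference between the groups. Of the genes most like the rubredoxin, which was lower, AT2G18920 was lower at -0.38 (limma, adjusted p = 0.00755), AT-HF was higher at 2.79 (adjusted p = 7.52e-10), and ATSPS4F was at -0.09 (adjusted p = 0.550). The samples share arrays and sets of replicate numbers, so the correlations describe how these samples varied and carry no test.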

How the data were processed

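The table deposited by the authors holds a linear intensity for each of 3439 probes in each sample. Background correction, scaling and spot averaging by the authors are not given in the sources used here. Gene names come from an old platform annotation, brought to TAIR10.1 by gene ID: 692 probes name 1 gene, 870 several, and 1877 are not listed. Values of 0 were missing. Log2 intensities were quantile normalised, and 2915 probes with at least 4 values in each group were fitted with limma 3.58.1 in R 4.3.3 (two-sided, no block, Benjamini-Hochberg over all tested probes, threshold 0.05). The steps were run on simulated data with independent noise, in which a small part of the probes was changed, as many up as down. The simulation held no general shift between the groups and no sets. It therefore cannot show how the scaling or the p-values behave in these data. Figures used matplotlib 3.10.9 in Python 3.11.15.

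The straight-line scaling regressed the 5th to 95th percentiles of the mean water array on those of each array. Alternatives also covered the filter, zeros, values of 100, leaving out samples, a block and averaged sets. Same-numbered samples of the groups correlated in their deviations at 0.280 to 0.450 in 6 of 6 pairs (2805 probes), other numbers of the same set at 0.162 to 0.282 and other sets at -0.290 to 0.045. On this evidence from the data the numbers were taken to pair the samples in the counts of pairs, the exchange within pairs and the replicate block. Pairs of the same set are not independent, but the exchange and the block treat them as if they were. The main fit did not use the pairing. The SE, intervals and adjusted p-values quoted from it for each gene therefore take no account of the pairs or sets. The number of arrays limits the precision.

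Members and lists were chosen with earlier results of these data known. Named were the 9 members, the measured genes of the list and, for 2 members, the 3 genes most alike in their deviations. Sequences are not used here.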

Additional observations from a re-analysis of the deposited data

How the results depend on the processing

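The calls of AT1G76450, AT1G54500 and PYG7 kept their direction under every alternative run, and their side of the threshold under every one with a test; so did LPA19 except without scaling (0.38). Without scaling 2154 probes were higher and 226 lower, against 918 and 960, 6 of the 9 genes and 2 listed genes were higher and 0 listed genes lower; AT5G36120 (CCB3) was at 1.54, AT3G08010 (ATAB2) at 1.34, PIFI at 0.96 and NdhS at -0.26. With median centring 4 of the 9 were lower (41.5% of all probes), and PSB27, PIFI, NdhS and ATAB2 were at -0.36, -0.30, -1.52 and 0.084. With the straight line PIFI was at 0.29 and NdhS at -0.47, and 0 listed genes were lower, since FZL could not be tested. With values of 100 missing NdhS was at -0.070. Within replicates 1 and 2 AT1G76450, AT1G54500 and NdhS were at 3.10, -1.10 and 0.33. Leaving out each sample in turn gave 3.27 to 3.51 for AT1G76450, -1.36 to -1.26 for AT1G54500, -0.98 to -0.86 for LPA19, 0.71 to 0.82 for PYG7, 0.06 to 0.85 for PSB27, -0.11 to -0.05 for PIFI, -0.059 to 0.37 for CCB3, -0.018 to 0.067 for NdhS and -0.13 to 0.20 for ATAB2, with no call changed. With a set left out, chosen after seeing the data, PSB27 was at 1.19 without replicates 1 and 2 and at -0.26 without 5 and 6, CCB3 at -0.047 without 5 and 6, NdhS at -0.11 without 1 and 2, and ATAB2 at 0.10 without 1 and 2 and 0.0082 without 5 and 6. The replicate block changed no call among the 9 genes (3.41 for AT1G76450, as without it, with adjusted p = 1.19e-06). Causes of these shifts were not tested.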
